A study of Mus musculus with 20 samples.

Results

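The trefoil factors Tff1, Tff2 and Tff3, the gastrokines Gkn1 and Gkn2, and the goblet cell genes Zg16, Agr2, Muc2, Muc13 and Spdef were followed as mucosal secretory products of stomach and gut. The group was chosen by gene symbol, and every probe set annotated to exactly 1 of these symbols was taken. That gave 15 probe sets for 10 genes, out of 45037 probe sets tested and 18193 genes with a probe set of their own. Gkn1, Agr2 and Muc13 had 2 probe sets each, Zg16 had 3, and the others had 1. For each gene the probe set that was brightest on average over the arrays leads, and its values are given unless another is named.

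The arrays measured RNA of medullary thymic epithelial cells sorted as CD45-G8.8+Ly51int MHC class II hi from single thymi of male mice aged 3 to 4.5 weeks. Mice of the B6, BALB and NOD backgrounds were compared in an Aire wild-type (WT) and an Aire knockout (KO) form, with 3 mice per genotype for B6, 4 per genotype for BALB and 3 per genotype for NOD, 20 mice in all. How the knockout allele was made is not stated in the labels. The design asks what the loss of Aire does in each background and how mice of 1 background differ.

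Medullary epithelial cells express many genes of peripheral organs at low frequency, and Aire is the transcriptional regulator known for driving much of this expression, which exposes developing T cells to the products of those organs. Trefoil factors are small, disulphide-rich peptides secreted with mucus, Tff1 and Tff2 mainly in the stomach and Tff3 mainly by intestinal goblet cells. Gastrokines are secreted by gastric surface cells, Muc2 is the gel-forming mucin of the gut, Muc13 is a membrane-bound mucin, Zg16 is a lectin-like goblet cell protein, Agr2 is a protein disulphide isomerase of the endoplasmic reticulum needed for mucin production, and Spdef is a transcription factor of goblet cell maturation.

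The 250 bases before the start of 4 of these genes are printed here, namely the adjacent gastrokine pair and Muc2, which fell 3.1-fold or more, and Spdef, which had the smallest fall. The RefSeq table used (build GRCm38.p6) held windows for 6 of the 10 genes, and Tff1, Tff2, Tff3 and Zg16 had no entry. The windows lie at chr6:87350916-87351165 on the minus strand (Gkn1), chr6:87373115-87373364 on the plus strand (Gkn2), chr7:141690090-141690339 on the plus strand (Muc2) and chr17:27728952-27729201 on the minus strand (Spdef). Each is written 5′ to 3′ along its gene. Capitals mark 3 short motifs, which were searched on both strands. One is the usual core of a TATA box, written TATAAA. Another is the core known for factors of the GATA family, written AGATAA. The last is the core known for CDX factors, the intestinal homeobox proteins, written CATAAA.
Gkn1: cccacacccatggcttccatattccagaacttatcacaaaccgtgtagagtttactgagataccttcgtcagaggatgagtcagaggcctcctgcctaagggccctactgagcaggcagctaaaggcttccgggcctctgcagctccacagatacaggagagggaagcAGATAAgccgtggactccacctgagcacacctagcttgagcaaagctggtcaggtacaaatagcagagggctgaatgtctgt
Gkn2: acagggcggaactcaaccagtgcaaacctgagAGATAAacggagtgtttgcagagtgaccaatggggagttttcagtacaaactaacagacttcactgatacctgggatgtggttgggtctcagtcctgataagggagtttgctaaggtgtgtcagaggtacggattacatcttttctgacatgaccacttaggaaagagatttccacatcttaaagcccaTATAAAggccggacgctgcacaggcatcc
Muc2: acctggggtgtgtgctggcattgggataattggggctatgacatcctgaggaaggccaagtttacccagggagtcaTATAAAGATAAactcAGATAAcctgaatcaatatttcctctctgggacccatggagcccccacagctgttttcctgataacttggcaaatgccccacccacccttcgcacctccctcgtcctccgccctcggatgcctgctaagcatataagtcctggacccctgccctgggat
Spdef: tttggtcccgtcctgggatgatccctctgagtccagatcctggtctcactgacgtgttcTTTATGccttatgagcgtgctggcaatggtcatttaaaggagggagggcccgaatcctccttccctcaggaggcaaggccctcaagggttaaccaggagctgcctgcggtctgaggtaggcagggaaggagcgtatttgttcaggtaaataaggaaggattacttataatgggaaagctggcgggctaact
Gkn2 held TATAAA at -29 to -24 from its start and AGATAA at -218 to -213. Gkn1 held AGATAA at -82 to -77 and no TATAAA. Muc2 held TATAAA at -174 to -169, an AGATAA that overlaps it by its first base, and another AGATAA at -159 to -154. Spdef held CATAAA on the opposite strand, at -191 to -186. Among 32851 windows of the same length, 12.4% held TATAAA, 10% AGATAA and 10.8% CATAAA, and a match is a description of the letters only.

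Median intensity per array ran from 86.3 to 90.9 units. The values had been processed with RMA before deposit, so these medians do not show how alike the raw signals were. The probe set for Aire was higher in the mice labelled KO (11.41 against 10.68 in log2 units), and since its position relative to the deletion is not given, it does not check the labels. Of 10 medullary epithelial markers, 2 were lower, 2 higher (Aire itself and Cd80) and 6 neither in KO mice. Their mean log2 level, Aire included, ran from 10.32 to 10.76 in WT and from 10.30 to 10.87 in KO mice. Of 11 dendritic cell and macrophage markers, 1 was lower and 2 higher, and their mean level ran from 7.62 to 9.30 in WT and from 7.51 to 8.91 in KO mice. Of 6 thymic tuft cell markers, 1 was lower and 5 were neither, while 3 of 7 markers of microfold-like epithelium were lower, with Gp2 at -2.19, and 1 was higher. All 7 fibroblast markers measured passed, 4 lower (Col3a1 at -1.12, its other probe set -0.14) and 3 higher (Dcn at 1.53, its other probe set 0.31). The mean level of the 7 ran from 7.25 to 7.51 in WT and from 7.12 to 7.58 in KO mice. Of 7 endothelial markers 1 was lower (Cd34, -2.11) and 1 higher, with a mean level of 6.23 to 6.62 in WT and 6.06 to 6.45 in KO mice. Of 9 cortical epithelial markers 2 were lower (Enpep at -1.93) and 2 higher, with a mean level of 8.85 to 9.47 in WT and 8.66 to 9.23 in KO mice. Of 9 thymocyte markers, Cd3g (-0.92) and Dntt (-0.67) were lower and none higher, at 6.64 to 7.51 in WT and 6.41 to 7.16 in KO mice. Of 6 B cell markers, Cr2 (1.44) and 1 other were higher and none lower, at 7.06 to 7.79 in WT and 7.37 to 8.10 in KO mice. Over all genes, 16.6% were lower and 9.7% higher by the same call. With the mean dendritic cell and macrophage marker level as a covariate, 15 member probe sets were called on average. By strain, 14 were called in B6, 11 in BALB and 11 in NOD, the same numbers as without it. The part of the other markers in the results on the members was not tested.

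All 15 probe sets were lower in KO than in WT mice when the difference was averaged over the 3 strains. Over all probe sets the same call (limma, Benjamini-Hochberg adjusted p under 0.05) was made downward for 10.1%. The median averaged difference was -1.63 over the 15 probe sets and -1.46 over the 10 lead probe sets, against 0.06 over all probe sets, in log2 units. In cells sorted in bulk, fewer cells that make a product and less RNA per cell cannot be told apart. Values of different probe sets are not compared as levels, since probes differ in brightness.

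**Figure D1:**
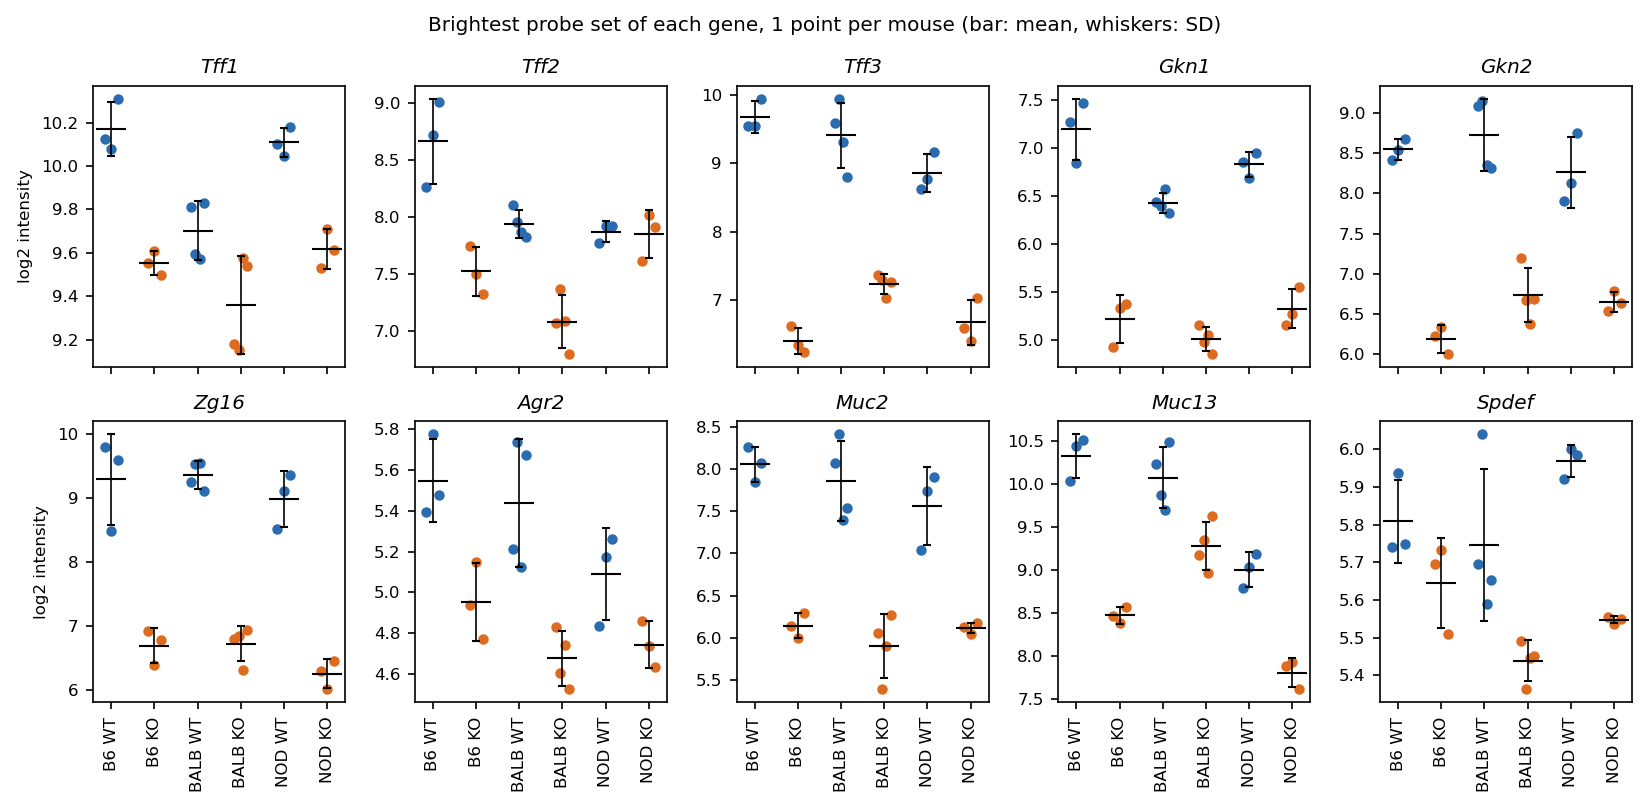
Log2 intensity of the lead probe set of each of the 10 genes (vertical axis) in every mouse by strain (horizontal axis), with WT mice in blue, KO mice in orange, bars for group means and whiskers for ±1 SD. Tff3, Gkn1, Gkn2, Zg16, Muc2, Muc13 and, narrowly in B6, Spdef separate without overlap in every strain. The groups of Tff1 overlap in BALB, and those of Tff2 and Agr2 overlap in NOD.

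Among the trefoil factors, Tff3 fell most. In B6 its log2 values were 9.54, 9.54 and 9.94 in WT mice and 6.63, 6.35 and 6.25 in KO mice. In BALB they were 9.59, 9.93, 9.31 and 8.80 in WT and 7.38, 7.29, 7.03 and 7.28 in KO mice. In NOD they were 8.63, 8.78 and 9.17 against 6.60, 6.40 and 7.04. Every KO mouse lay below every WT mouse of its strain, by more than 1 log2 unit in each strain. Averaged over strains, Tff3 fell by 2.53 ± 0.13 (SE) in log2 units, or 5.79-fold (limma, adjusted p = 1.37e-10). It was 9.6-fold in B6, 4.48-fold in BALB and 4.52-fold in NOD.

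Tff1 and Tff2, the gastric trefoil factors, fell less. Tff1 read 10.12, 10.08 and 10.31 in WT and 9.55, 9.61 and 9.50 in KO mice of B6. BALB mice read 9.81, 9.60, 9.57 and 9.83 in WT and 9.18, 9.15, 9.58 and 9.54 in KO mice, and in NOD 10.10, 10.05 and 10.18 against 9.53, 9.71 and 9.61. The groups did not overlap in B6 or NOD, and in BALB 1 KO mouse, replicate 3, lay above the lowest WT mouse. The averaged difference was -0.48 ± 0.07 (1.4-fold lower, limma adjusted p = 3.84e-05). By strain, limma's adjusted p was 0.00262 in B6, 0.0623 in BALB and 0.0245 in NOD. With the mouse number as a block in BALB and NOD, where same-numbered mice deviated together, the BALB value passed as well (adjusted p = 0.0489). The NOD call was lost without WT replicate 1, 2 or 3 or KO replicate 1 or 3 (adjusted p of 0.0568 to 0.119).

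Tff2 read 8.27, 8.72 and 9.01 in WT against 7.75, 7.50 and 7.32 in KO mice of B6. The BALB values were 8.11, 7.96, 7.87 and 7.83 against 7.07, 7.37, 7.09 and 6.80. In NOD it read 7.77, 7.92 and 7.92 in WT and 7.61, 8.02 and 7.91 in KO mice. The groups were apart in B6 and BALB and overlapped in NOD. The difference was -1.14 ± 0.17 in B6 (limma, adjusted p = 0.000265) and -0.86 ± 0.15 in BALB (adjusted p = 0.00125). In NOD it was -0.02 with a 95% interval of -0.39 to 0.34 (adjusted p = 0.981), an interval that does not reach either of the other values. The NOD effect was smaller than that of B6 by 1.11 (95% interval 0.59 to 1.63), but the F test over strains gave a limma adjusted p of 0.107, or 0.0382 with the mouse number as a block in all strains and 0.0944 with it in BALB and NOD only. The averaged difference of -0.67 ± 0.10 (adjusted p = 5.21e-05) combines falls in B6 and BALB with no detectable fall in NOD.

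Both gastrokines fell in every strain. Gkn1 read 7.27, 6.84 and 7.47 in WT and 4.93, 5.34 and 5.38 in KO mice of B6. In BALB the values were 6.44, 6.40, 6.57 and 6.32 against 5.16, 4.98, 5.06 and 4.85, and in NOD 6.85, 6.69 and 6.95 against 5.16, 5.27 and 5.55. No KO mouse reached the lowest WT mouse of its strain. On average Gkn1 fell by 1.63 ± 0.09, or 3.1-fold (limma, adjusted p = 2.32e-10), and the other Gkn1 probe set fell by 1.78 ± 0.10. The lead probe set carries the array maker's suffix for probes that may also match other transcripts, and the other one does not.

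Gkn2 read 8.41, 8.54 and 8.68 in WT and 6.23, 6.34 and 6.0 in KO mice of B6. In BALB it read 9.08, 9.15, 8.35 and 8.32 against 7.19, 6.67, 6.38 and 6.69. In NOD it read 7.90, 8.13 and 8.75 against 6.53, 6.79 and 6.63. The groups were apart by more than 1 log2 unit in each strain. On average Gkn2 fell by 1.98 ± 0.14, or 3.95-fold (limma, adjusted p = 5.48e-09), with -2.35 in B6, -1.99 in BALB and -1.61 in NOD.

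Of the 5 goblet cell members, Zg16 had the largest fall by lead probe set. Its lead probe set read 9.80, 8.49 and 9.61 in WT and 6.92, 6.40 and 6.78 in KO mice of B6. The BALB values were 9.25, 9.54, 9.56 and 9.12 against 6.80, 6.85, 6.32 and 6.93, and in NOD 8.51, 9.11 and 9.36 against 6.30, 6.02 and 6.46. WT and KO mice did not overlap, and the widest group was B6 WT (SD 0.71), where replicate 2 was the lowest. On average Zg16 fell by 2.66 ± 0.16, or 6.32-fold (limma, adjusted p = 7.82e-10). By this probe set the strains were close, at -2.60 in B6, -2.64 in BALB and -2.74 in NOD. The other Zg16 probe sets fell 12.7-fold and 3.6-fold, so the size depends on the probe set while all 3 passed. As for Gkn1, the lead probe set carries the suffix for probes that may also match other transcripts. The 12.7-fold probe set carries a different suffix, for probes shared between transcripts, and the 3.6-fold one carries neither. That last probe set read -1.84 in B6, -2.36 in BALB and -1.34 in NOD.

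Muc2, the secreted gut mucin, read 8.25, 7.84 and 8.07 in WT and 6.14, 6.0 and 6.30 in KO mice of B6. In BALB it read 8.07, 8.41, 7.40 and 7.53 against 6.06, 5.39, 5.90 and 6.27, and in NOD 7.04, 7.73 and 7.91 against 6.13, 6.05 and 6.17. The groups did not overlap in any strain. Averaged over strains, Muc2 fell by 1.77 ± 0.14, or 3.4-fold (limma, adjusted p = 5.17e-08).

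Muc13, the membrane-bound mucin, read 10.04, 10.44 and 10.51 in WT and 8.47, 8.38 and 8.58 in KO mice of B6. In BALB the values were 10.24, 9.88, 9.70 and 10.49 against 9.18, 9.35, 8.97 and 9.63. In NOD they were 8.79, 9.04 and 9.19 against 7.88, 7.94 and 7.62. The genotypes were apart within each strain, narrowly in BALB, yet WT mice of NOD overlapped KO mice of BALB. Averaged over strains, Muc13 fell by 1.28 ± 0.11 (2.43-fold, limma adjusted p = 9.08e-08). It was -1.85 ± 0.20 in B6, -0.79 ± 0.17 in BALB and -1.20 ± 0.20 in NOD. The other Muc13 probe set fell by 1.29 ± 0.19 on average but did not pass in BALB (adjusted p = 0.168) or NOD (adjusted p = 0.152). With the mouse number as a block in BALB and NOD it passed in both (adjusted p = 0.0348 and 0.0238). The lead Muc13 probe set carries the suffix for probes shared between transcripts, and the other one does not.

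Agr2 and Spdef, which act inside the secretory cell, had small differences. Their lead probe sets were dim, at the 27.22 and 36.15 percentile of all probe sets in WT mice, where folds may be understated. Agr2 read 5.39, 5.78 and 5.48 in WT and 4.94, 5.15 and 4.77 in KO mice of B6. The BALB values were 5.21, 5.74, 5.12 and 5.67 against 4.83, 4.61, 4.74 and 4.53, and in NOD 4.84, 5.17 and 5.26 against 4.86, 4.74 and 4.63. Only the NOD groups overlapped, by 1 KO mouse. On average Agr2 fell by 0.57 ± 0.09, or 1.48-fold (limma, adjusted p = 0.000213). BALB passed (adjusted p = 0.00263) and NOD did not (adjusted p = 0.39, 95% interval -0.70 to 0.01). B6 passed at 0.0334, a call lost without WT replicate 2 or 3 or KO replicate 1 or 3 (adjusted p of 0.0603 to 0.162) and with the mouse number as a block in BALB and NOD (adjusted p = 0.0529). The other Agr2 probe set was among the dimmest on the array.

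Spdef read 5.74, 5.94 and 5.75 in WT and 5.70, 5.73 and 5.51 in KO mice of B6. In BALB it read 5.70, 6.04, 5.59 and 5.65 against 5.49, 5.36, 5.45 and 5.45, and in NOD 5.92, 6.0 and 5.99 against 5.56, 5.54 and 5.55. KO mice lay below WT mice in each strain, though narrowly in B6. On average Spdef fell by 0.30 ± 0.06, or 1.23-fold (limma, adjusted p = 0.00142). NOD passed (-0.42, adjusted p = 0.0303), a call lost without any 1 of its 6 mice (adjusted p of 0.0508 to 0.124). B6 (adjusted p = 0.426) and BALB (adjusted p = 0.0579) did not pass.

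**Figure D2:**
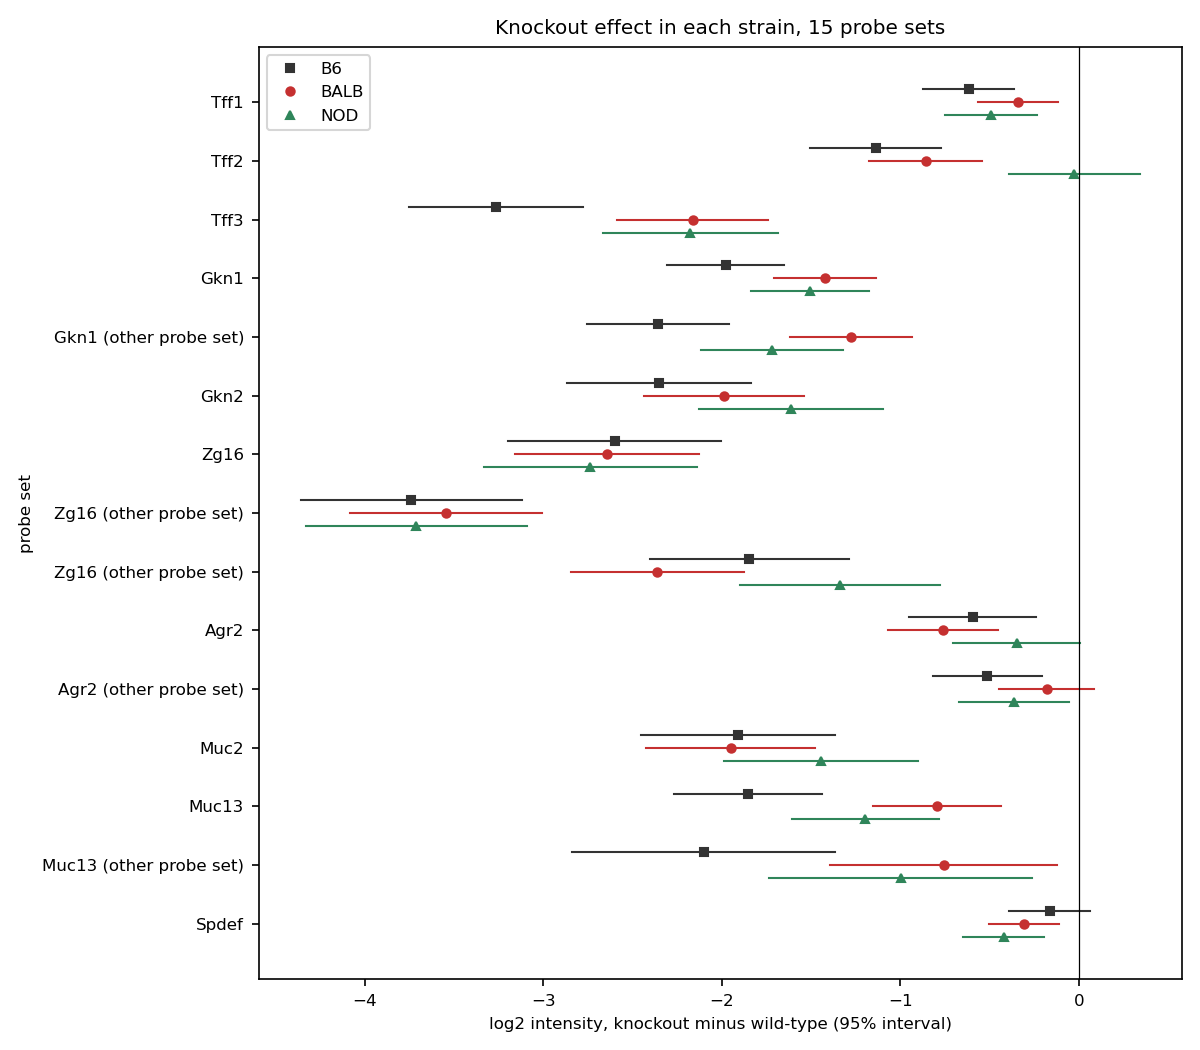
Difference of KO minus WT in log2 intensity (horizontal axis) for each of the 15 probe sets (vertical axis), by strain (B6 squares, BALB circles, NOD triangles), with 95% intervals from limma. Points left of 0 are lower in KO mice, and the Tff2 interval in NOD (-0.39 to 0.34) includes 0.

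By strain, 14 of the 15 probe sets were lower in KO mice of B6 (5.54% of all probe sets were), 11 in BALB (4.26%) and 11 in NOD (2.81%). A fall of at least 2-fold averaged over strains was seen for 10 probe sets of 6 genes, and over all probe sets for 2.14%. At least 4-fold lower were 3 probe sets of 2 genes, Tff3 and Zg16, against 0.553% of all probe sets. The remaining Zg16 probe set fell 3.6-fold. KO mice lay below WT mice with no overlap for 15 probe sets in B6 (11% of all probe sets did), 12 in BALB (5.6%) and 13 in NOD (10%). In all 3 strains together this held for 10 probe sets, and for 7 of the 10 genes by their lead probe set, against 3.17% of all probe sets. The 3 genes with an overlap in some strain were Tff1, Tff2 and Agr2.

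Numbers in the submitters' sample codes form 4 runs, whose meaning is not given, and 5 comparisons of genotypes can be made within a strain and run. All 10 genes were lower in KO mice in the BALB mice of run 1, the BALB mice of run 2 and the B6 mice of run 3. In NOD 9 of 10 were lower in each of runs 2 and 4, the exceptions being Agr2 (0.02 higher, 1 mouse of each genotype) and Tff2 (0.04 higher). The share of all probe sets lower within each run is not given. Over all probe sets the median difference by strain was 0.07 in B6, 0.04 in BALB and 0.05 in NOD. The runs reuse the arrays of the strain comparisons, so these counts are not separate support.

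No member probe set passed the F test for a knockout effect that differs between strains at an adjusted p under 0.05 in limma, while 0.435% of all probe sets did, and 7 of the 15 had an unadjusted p under 0.05. Without B6 WT replicate 1, 1 passed. With the mouse number as a block in all strains 5 passed, those of Tff2, Tff3 and Muc13 and the other Gkn1 probe set, not its lead. With that block in BALB and NOD only, where the numbers were taken as pairs, 0 did. Array weights gave 2, and the run as a block, an offset of 32 or the Gapdh 3'/5' covariate gave 1 each. The fall of Tff3 was smaller by 1.10 in BALB than in B6 (95% interval 0.45 to 1.75) and by 1.09 in NOD (0.40 to 1.78), with a limma adjusted p of 0.283 for the F test. That of Muc13 was smaller in BALB than in B6 by 1.06 (95% interval 0.51 to 1.60, adjusted p = 0.242). For Zg16 the adjusted p was 1.0 by the lead probe set. By the probe set that fell 3.6-fold, the limma F test gave 0.804 (0.0305 unadjusted).

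Among WT mice, 6 of the 15 probe sets differed between strains, those of Tff1, Tff2, Gkn1 and Muc13, and 11.3% of all probe sets did. Strain goes largely with the run of the sample codes, and with the run as a block the number was 3. Muc13 was highest in B6 (10.33 ± 0.25, SD, n = 3), then BALB (10.08 ± 0.35, n = 4), and lowest in NOD (9.01 ± 0.20, n = 3). NOD minus B6 was -1.32 (limma, adjusted p = 0.000308) and NOD minus BALB -1.07 (adjusted p = 0.00137), while BALB minus B6 was -0.25 and did not pass (adjusted p = 0.491). By the other Muc13 probe set NOD minus B6 passed (-2.04, limma adjusted p = 0.00113). There NOD minus BALB (-0.98, adjusted p = 0.0936) and BALB minus B6 (-1.07, adjusted p = 0.0625) did not. Tff2 was highest in B6, with BALB minus B6 at -0.72 (adjusted p = 0.0117) and NOD minus B6 at -0.79 (adjusted p = 0.00861). BALB minus B6 was -0.76 for Gkn1 (adjusted p = 0.0036) and -0.47 for Tff1 (adjusted p = 0.0187), and NOD lay 0.41 above BALB for Tff1 (adjusted p = 0.0402). By pairs of strains, 4 of the 15 probe sets differed between BALB and B6 (6.1% of all probe sets did), 4 between NOD and B6 (7.04%) and 2 between NOD and BALB (6.14%). Tff3 was lower in NOD than in B6, at -0.82 (adjusted p = 0.0403), while its F test over the 3 strains missed the threshold (limma, adjusted p = 0.0618).

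Among KO mice, 4 of the 15 probe sets differed between strains, those of Tff2, Tff3 and Muc13, against 17.9% of all probe sets, so the share of members is near that of the array. The number was 2 without B6 KO replicate 2, B6 KO replicate 3 or BALB KO replicate 4. By pairs, 2 of the 15 differed between BALB and B6 (12.2% of all probe sets did), 1 between NOD and B6 (10%) and 3 between NOD and BALB (8.79%). Muc13 was again lowest in NOD, at -1.47 against BALB (limma, adjusted p = 3.46e-05) and -0.67 against B6 (adjusted p = 0.039). By the other Muc13 probe set NOD minus BALB passed (-1.22, limma adjusted p = 0.0247) and NOD minus B6 did not (-0.94, adjusted p = 0.101). Tff2 was 0.77 higher in NOD than in BALB KO mice (adjusted p = 0.00542). Tff3 was 0.83 higher in BALB than in B6 KO mice (adjusted p = 0.019).

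The median SD between mice of a group was above that of all probe sets in each of the 6 groups. The median SD over the 10 genes ran from 0.149 in NOD KO to 0.263 in BALB WT mice, and over all probe sets from 0.132 in NOD WT to 0.201 in BALB WT mice. In NOD, WT replicate 3 lay above its group mean for 10 of 10 genes and WT replicate 1 for 1 of 10. The mean dendritic cell and macrophage marker level was 9.30 in the former and 7.73 in the latter, and the part of this in the spread was not tested. Among BALB WT mice, the mice of run 1 lay above the group mean for 7 genes each, and those of run 2 for 2 and 3.

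Genes beside the members on the chromosome were set against them, with the order taken from RefSeq (GRCm38.p6). Only genes with a probe set of their own are listed, and an unmeasured gene may lie between neighbours, as 1 does between Tff2 and Tff1. On chromosome 17 the order of measured genes is Umodl1, Abcg1, Tff3, Tff2, Tff1, Tmprss3 and Ubash3a. Next to the 3 falling trefoil genes, Abcg1, a sterol transporter, read -0.07 (limma, adjusted p = 0.69) and Tmprss3, a transmembrane protease, rose by 0.41 (adjusted p = 0.00431). Further out, Umodl1 fell by 0.58 and Ubash3a read 0.12 (adjusted p = 0.148). On chromosome 6 Gkn3, the gastrokine next to Gkn2, read -0.13 (adjusted p = 0.151), whereas Gkn1 and Gkn2 fell, and Antxr1 on the other side of Gkn1 fell by 0.82. Next to Muc2 on chromosome 7, the gastric mucin Muc5ac fell by 0.78 (adjusted p = 0.000151) and Muc5b, beyond it, read -0.15 (adjusted p = 0.247). Agr3, the paralog beside Agr2, fell by 0.72 (adjusted p = 2.44e-06), and Tspan13 on the other side rose by 0.38 (adjusted p = 0.0306). For Zg16, the nearest measured genes, Kif22 and AI467606, did not pass (-0.39 each), nor did Heg1 (-0.13) and Itgb5 (0.04) beside Muc13 or Pacsin1 (-0.27) and Ilrun (0.34) beside Spdef.

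**Figure D3:**
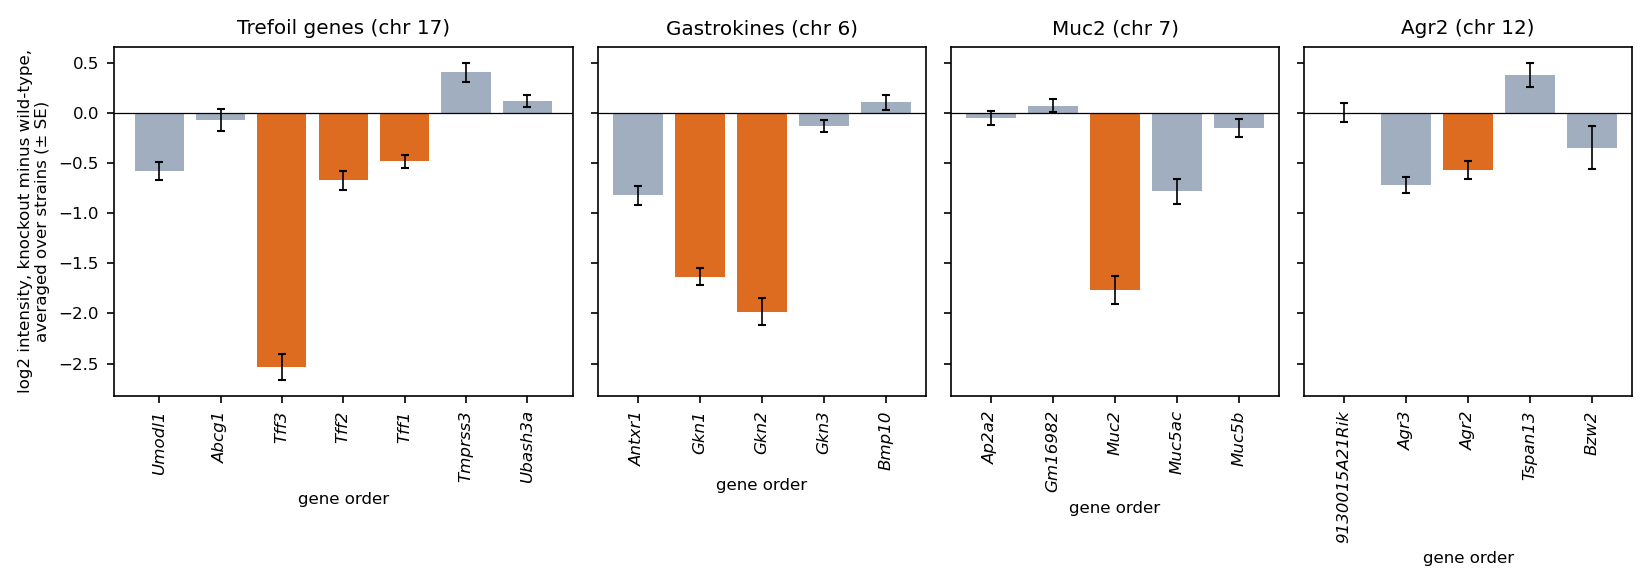
Averaged difference of KO minus WT in log2 intensity (vertical axis), with SE whiskers, for the members (orange) and the measured genes beside them (grey) in chromosome order (horizontal axis). Gkn1 (-1.63) and Gkn2 (-1.98) stand beside Gkn3 (-0.13), and Tff3, Tff2 and Tff1 between Abcg1 (-0.07) and Tmprss3 (0.41).

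Other genes of the same organs were taken from lists, each gene by its brightest probe set. Over all genes 16.6% were lower and 9.7% higher by limma on the averaged difference, with a median of 0.01. Of 21 other goblet cell genes measured, 12 were lower, 2 higher and 7 neither, with a median of -0.51. They included the regenerating family lectin Reg4 (-3.12), the secreted protease Clca1 (-2.25, its other probe set -0.04), the mucosal scavenger protein Dmbt1 (-1.78) and Sytl2 (-1.51), which acts in vesicle docking. Of 18 other stomach mucosa genes, 8 were lower, 3 higher and 7 neither (median -0.12), with gastric lipase Lipf at -2.79 and the chitinase Chia1 at -0.91, while Anxa10 rose by 0.90 and Sult1c2 by 0.80. Of 8 other mucins, 4 were lower and none higher (median -0.41), namely Muc15 (-1.29), Muc5ac, Muc3 (-0.42) and Muc16 (-0.39).

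Lists of genes that control, fold or receive such products were described in the same way. Of 22 transcription factors of stomach and gut lineages, 6 were lower, 1 higher and 15 neither (median -0.08). Sox2, a factor of the foregut, fell by 1.32, Neurog3 by 0.88 and Cdx2 by 0.57, but other probe sets of Neurog3 and Cdx2 read 0.04 and 0.03, and Hnf4g rose by 0.50. Of 18 genes for folding and export of secretory proteins, 0 were lower, 4 higher and 14 neither (median 0.11). The 4 were Creld2 (0.48), Ero1b (0.40), Ero1a (0.39) and Dnajb9 (0.35). Other probe sets read 0.72 and 0.64 for Ero1b and 0.03 and 0.36 for Ero1a. Of 7 proposed receptors of trefoil peptides, Ackr3 (-1.04) and F2r (-1.03, its other probe set -0.47) fell and F2rl3 rose by 0.21. The other 4, Cxcr4 among them (-0.32, limma adjusted p = 0.302), did not pass. The lists overlap in part, and Muc5ac is in more than 1 of them.

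**Figure D4:**
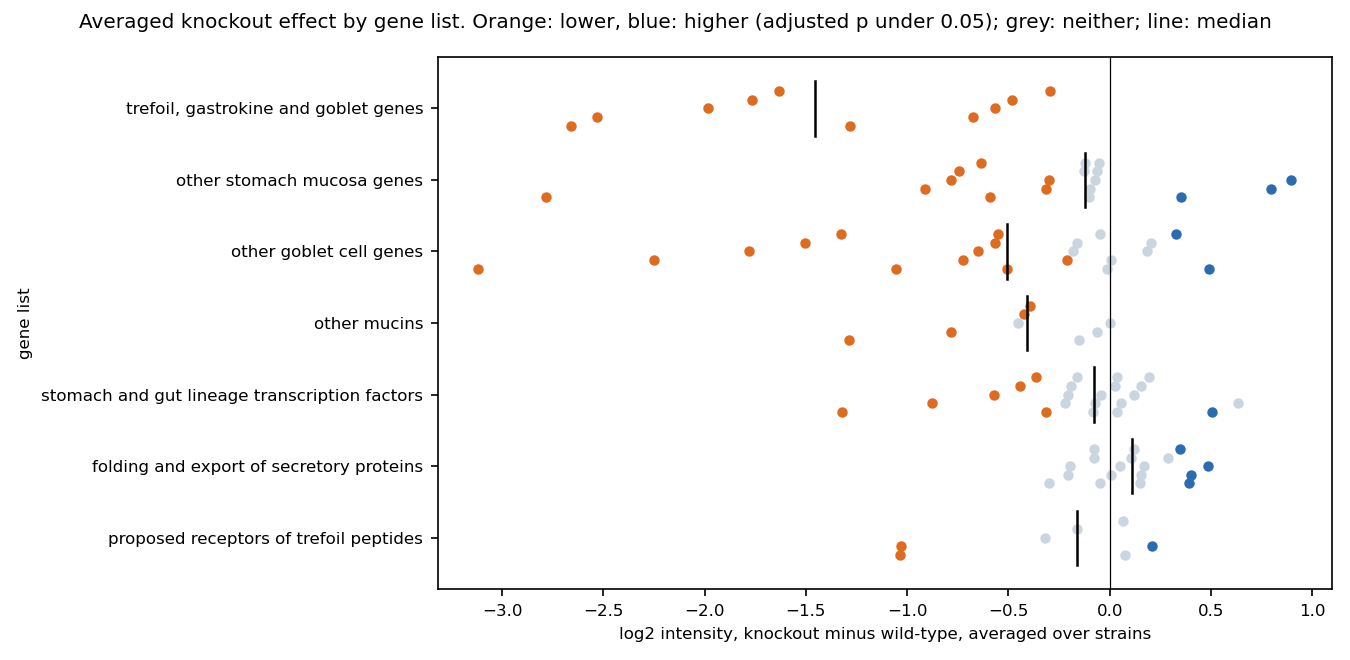
Averaged difference of KO minus WT in log2 intensity (horizontal axis) for each gene of the member group and of 6 related lists (vertical axis), orange where lower, blue where higher and grey where neither passed, with a line at each median. The member median is -1.46, that of other goblet cell genes -0.51 and that of folding and export genes 0.11.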

How the data were processed

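Per the labels' protocols, Trizol-isolated total RNA of sorted cells from 1 thymus was amplified in 2 rounds and labelled with biotin, which can bias signal towards transcript 3' ends. The deposited values are intensities on a linear scale (6.55 to 18395), made with RMA per the submitters' processing notes. Sources used here do not give the RMA version. Log2 was taken of the deposited intensities. No detection calls were used, so no probe set is called undetected, and folds of dim probe sets may be understated. Of 45101 probe sets, 64 controls were left out, 34945 had 1 gene symbol, 932 several and 9160 none.

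The 6 group means were fitted to 20 arrays with limma 3.58.1 (R 4.3.3; lmFit, eBayes, 14 residual degrees of freedom), with Benjamini-Hochberg adjustment over all 45037 probe sets and a threshold of 0.05. The number of arrays limits the precision, and p-values rest on the spread between mice. The code was tested on simulated data. Genes named are the members, up to 4 genes past the threshold per list with the largest differences, the paralogs Muc5ac, Gkn3 and Agr3, chromosome neighbours, and the gene most alike each member over the arrays. Cxcr4, Umodl1, Ubash3a and Muc5b fall partly outside this rule and were named after their values were seen. The members and lists were chosen with earlier results of these data known.

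Deviations from the group means were correlated between same-numbered WT and KO mice. Every BALB pair (r = 0.457 to 0.658) and every NOD pair (0.314 to 0.67) exceeded 0.1, so numbers were taken as pairs there, from the data and not the labels. For B6, r was 0.78 for the mice numbered 1, 0.72 for those numbered 2 and -0.13 for those numbered 3. Since 1 of 3 pairs did not exceed 0.1, numbers were not taken as pairs in B6. Alternatives covered quantile scaling, an offset, leaving out dim probe sets, a variance trend, array weights, blocks, covariates, fold limits, other probe sets and leaving out mice.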

Additional observations from a re-analysis of the deposited data

How the results depend on the processing

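The 40 gene effects were set against 1438 alternatives, among them refits, other probe sets and a 2-fold limit on the main fit. Leaving out a mouse of another strain cannot change a within-strain difference, only its p-value, so many alternatives kept direction by design. Of the 1438, 1384 kept direction and side of the threshold, 38 lost the call, 11 gained it and 5 changed sign. The 5 were all Tff2 in NOD, never called (-0.024 with all mice): 0.013 after quantile normalization, 0.0096 with the dendritic cell and macrophage covariate, and above 0 in 3 of the refits without 1 mouse, whose range was -0.11 to 0.093. Leaving out 1 mouse in turn gave 15 to 15 probe sets lower on average, 12 to 14 in B6, 11 to 12 in BALB, 9 to 11 in NOD, 0 to 1 for the F test on knockout effects, 5 to 7 between strains in WT, 2 to 4 in KO mice, and 36 to 44 of the related genes (42 with all mice). With log2(intensity + 32), 1 effect differed between strains and 2 probe sets between KO strains. Above the median level 9 of 15 member probe sets were left to test, and all 9 were lower on average and in B6, with 3 differing between WT strains and 27 related genes called. Array weights gave 2 effects that differed between strains and 7 differences between KO strains. The code run as a block gave 1 and 3 (WT strains), and the Gapdh 3'/5' covariate 1 effect. Merging B6 KO replicates 2 and 3, or leaving out 3 B6 arrays with low Gapdh 3'/5' ratios, left 2 differences between KO strains. Without those 3 arrays 1 B6 KO mouse is left, assumed to vary like the other groups, and limma's adjusted p in B6 was 0.0987 for Tff1 (-0.66) and 0.111 for Tff2 (-0.89). A 2-fold limit left 11 related genes. With the replicate block in all strains, 5 knockout effects differed between strains, as did 2.85% of all probe sets. The 5 were those of Tff2 (limma, adjusted p = 0.0382), Tff3 (0.0308), both Muc13 probe sets and the other Gkn1 probe set (0.0259, its lead 0.214). With pairs in BALB and NOD only, a fit chosen after seeing the data, 0 did (0.822% of all probe sets). The causes were not tested.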

Other observations

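The gene whose log2 intensity followed each member most closely over the 20 arrays was named by Pearson's r among 18192 genes, as a description, since the arrays share genotype and strain. For Tff3 it was Nts (neurotensin, r = 0.978), with Gkn2 next at 0.972, and for Gkn2 it was Tff3 itself. For Zg16 it was Svs4, a seminal vesicle protein (0.973), for Muc2 the embryonic globin Hba-x (0.98), for Gkn1 Ly6g6g (0.973), and for Muc13 Serpinb11 (0.965). For Tff2 it was Mmp23 (0.928), for Tff1 the major urinary protein Mup5 (0.922), for Spdef Khdc3 (0.936), and for Agr2 Upk3a (0.902), a bladder lining protein. Muc13 had no member among its closest 1% of genes, and its closest member, Tff3, ranked 272. Zg16 and Muc2 each had 4 members there.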
